A study of Mus musculus with 10 samples.

Results

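The 9 genes described here, Gsx1, Gsx2, Ebf1, Isl1, Foxp1, Foxp2, Sp8, Sp9 and Meis2, encode transcription factors of the lateral ganglionic eminence and of the striatal neurons that it produces. They were chosen by symbol from what is known of this lineage. The choice of genes, lists and tests was made with earlier results of these data known. Counts set against shares of all genes are therefore descriptions. All 9 genes had values among the 14796 named genes of the deposited table. RNA was sequenced from the telencephalon of mouse embryos at embryonic day 12. Of the 10 samples, 2 were null and 3 carried the p.C1559F missense allele of Polr1a, and 5 were wild type. Polr1a codes for the catalytic subunit of the polymerase that makes ribosomal RNA. The first number in the sample titles, whose meaning the labels do not give, splits the samples into the null set (2 null and 2 wild-type samples) and the missense set (3 missense and 3 wild-type samples). Mutants were set against the wild types of the same set. Strain, zygosity and sex are not given in the labels, nor whether embryos shared a litter or were pooled, so p-values reflect only how far these samples scatter, which may in part be technical. Values are log2 CPM (counts scaled to a common library total) as the authors deposited them, and the depth of each sample is unknown.

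The lateral ganglionic eminence is a swelling of the ventral forebrain whose dividing cells give rise to the projection neurons of the striatum and to interneurons of the olfactory bulb. Gsx1 and Gsx2 are homeobox genes of its progenitors, and in the mouse Gsx2 acts there upstream of the Dlx genes. Sp8 and Sp9 are zinc-finger genes that this lineage expresses, and Meis2 is a homeobox gene of progenitors and of striatal and olfactory neurons. Which cells or which part of the telencephalon the RNA of Sp8 and Sp9 came from was not tested. Isl1 and Ebf1 act in neurons of the direct striatal pathway, while Foxp1 and Foxp2 are forkhead genes of striatal projection neurons that cortical neurons also express. In bulk tissue, fewer cells of a type and less RNA per cell cannot be told apart.

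Polr1a itself measured 4.99 and 4.82 log2 CPM in the null samples, against 5.38 and 5.38 in the null-set wild types (log2 difference -0.48, SE 0.20, limma adjusted p = 0.563). It measured 5.09, 5.66 and 5.79 in the missense samples, against 5.62, 5.51 and 5.64 in the missense-set wild types (log2 difference -0.08). Transcripts of all 9 genes were measured in every sample, at 1.74 to 8.35 log2 CPM, above the floor of the table at -3.16.

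In the null samples, Gsx2, Isl1, Sp9 and Meis2 lay below both wild types, Foxp1 and Foxp2 lay above both, and Gsx1, Ebf1 and Sp8 overlapped with them. None of the 9 passed the threshold of limma, an adjusted p under 0.05 over all genes, where the lowest value was 0.0947 and 0.162% of all genes passed. At an unadjusted p under 0.05 the count was 6 of 9, against 8.32% of all genes; 2 were higher, against 5.04% of all genes, and 4 lower, against 3.28%. Groups did not overlap for 37.7% of all genes in this comparison of 2 samples against 2, with 14.8% below and 22.9% above. The median log2 change of the 9 genes was -0.18, beside 0.03 over all genes.

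**Figure D1:**
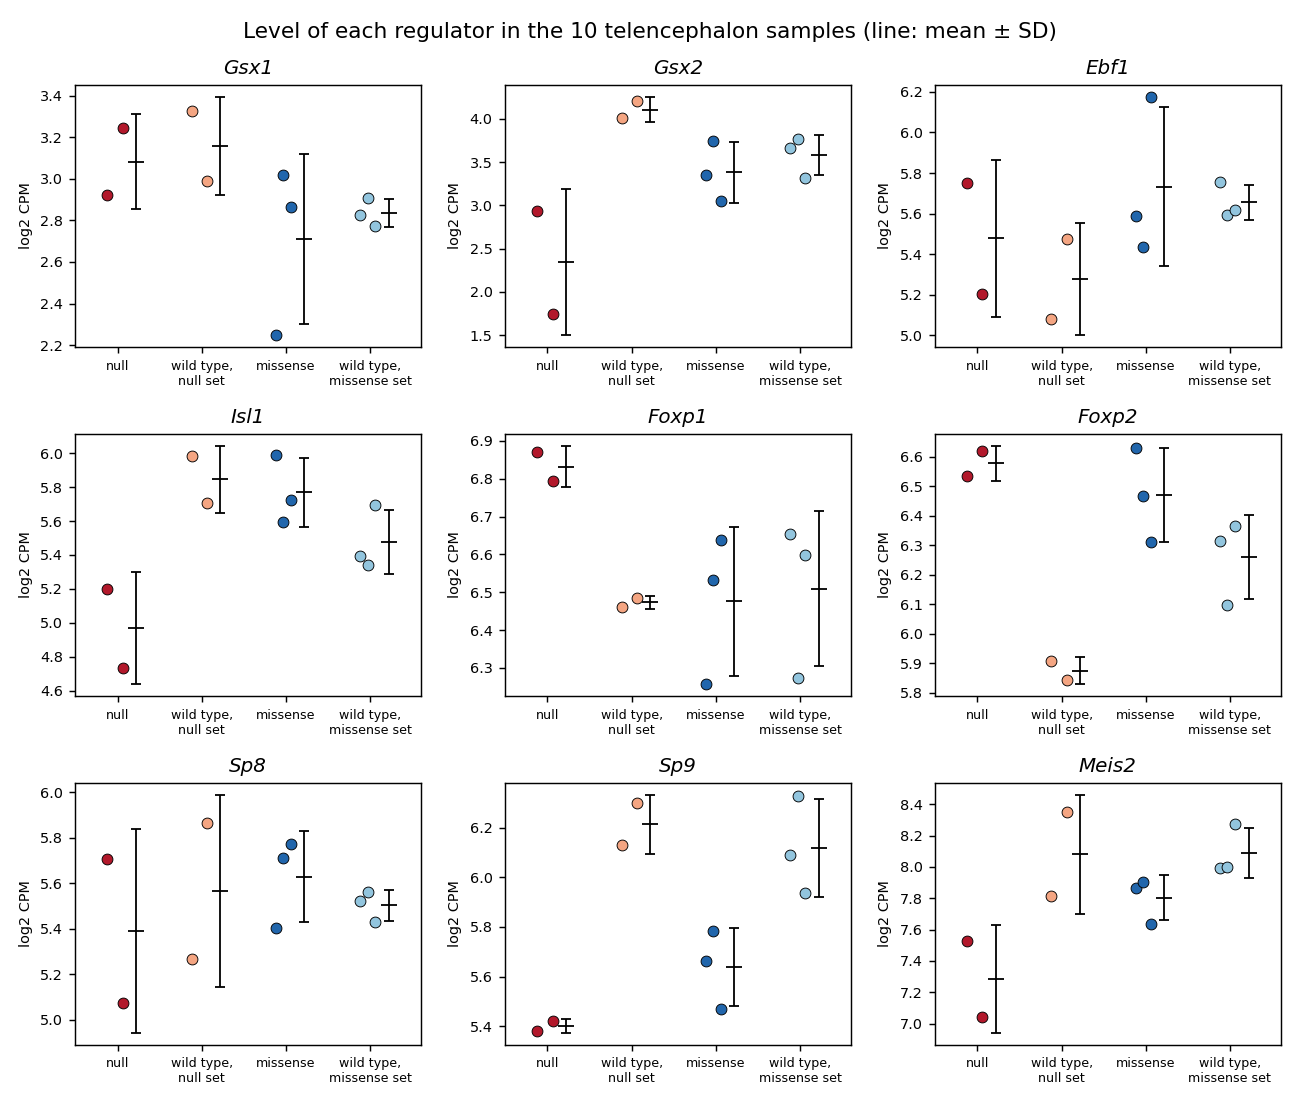
Level of each regulator in log2 CPM (vertical axis) in the null samples, the null-set wild types, the missense samples and the missense-set wild types; each point is a sample, each line the mean ± SD, and the axis range differs between genes. Gsx2, Isl1, Sp9 and Meis2 lie lower in both null samples than in both null-set wild types, and Sp9 and Meis2 also lie lower in the 3 missense samples than in their wild types.

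Gsx2 had the largest difference of the 9 in the null samples. It measured 2.94 and 1.74 log2 CPM in null samples 1 and 2, against 4.01 and 4.21 in the null-set wild types. Both null samples lay below both wild types, and they differed more from each other than the wild types did. The log2 difference was -1.77 (SE 0.37, 0.294-fold, limma adjusted p = 0.130), with a 95% interval of -2.59 to -0.95. Null sample 2 weighed most in this value: the difference was -1.17 without it (adjusted p = 0.549) and -2.36 without null sample 1, where it passed (adjusted p = 0.0395). The adjusted p of Gsx2 ran from 0.0395 to 0.549 over all alternatives.

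Its paralogue Gsx1 showed no such separation. Gsx1 measured 2.92 and 3.24 log2 CPM in the null samples, against 3.33 and 2.99 in the null-set wild types (log2 difference -0.08, SE 0.30, 95% interval -0.74 to 0.59, limma adjusted p = 0.978). The groups overlapped, with wild type 1 highest and null sample 1 lowest of the 4. Within each sample, the log2 level of Gsx2 minus that of Gsx1 was 0.02 and -1.50 in the null samples, against 0.68 and 1.22 in the null-set wild types. This quantity does not depend on the scaling of a sample, and it was lower in both null samples than in any of the 5 wild types.

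Sp9 was the member with the closest replicates among those below the wild types. It measured 5.38 and 5.42 log2 CPM in the null samples, against 6.13 and 6.30 in the null-set wild types. The gap between the groups was wider than the spread within either. The log2 difference was -0.81 (SE 0.15, 0.570-fold, limma adjusted p = 0.0947). It passed where the 5 wild types formed 1 group (log2 difference -0.75, adjusted p = 0.0254), and the adjusted p ran up to 0.398 over the other alternatives. In the GENCODE annotation of GRCm38, Cir1 overlaps Sp9 on the opposite strand, and whether the counting used strand is not given in the sources used here. Cir1 measured 5.09 and 4.91 log2 CPM in the null samples, against 5.01 and 5.13 in those wild types (log2 difference -0.07).

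Sp8, the paralogue of Sp9, measured 5.71 and 5.07 log2 CPM in the null samples, against 5.27 and 5.87 in the null-set wild types. The groups overlapped, and the log2 difference was -0.18 (SE 0.23, 95% interval -0.69 to 0.34, limma adjusted p = 0.891). Its sign rested on single samples, with 0.14 without null sample 2 and 0.12 without null-set wild type 2. The log2 level of Sp9 minus that of Sp8 was -0.32 and 0.35 in the null samples, against 0.86 and 0.43 in those wild types.

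Isl1, a LIM-homeobox gene that cholinergic and direct-pathway striatal neurons use, measured 5.20 and 4.74 log2 CPM in the null samples, against 5.99 and 5.71 in the null-set wild types. Both null values lay below every other sample of the series. The log2 difference was -0.88 (SE 0.20, 0.544-fold, limma adjusted p = 0.164). Meis2 measured 7.53 and 7.04 log2 CPM in the null samples, against 7.81 and 8.35 in those wild types. These groups were separate, although wild type 1 and null sample 1 lay close to each other. The log2 difference of Meis2 was -0.80 (SE 0.20, 0.576-fold, limma adjusted p = 0.206), and it was -0.53 without null-set wild type 2 (adjusted p = 0.456). The adjusted p of Meis2 ran from 0.0593 to 0.700 over all alternatives.

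The sequence before the start site is shown for the 4 genes that lay below both wild types in the null samples. The windows are the 250 bases upstream of the RefSeq start of each gene in GRCm38.p6, an earlier build than the GRCm39 named in the labels: chr5:75075351-75075600 (plus strand), chr13:116309689-116309938 (minus strand), chr2:73271676-73271925 (plus strand) and chr2:116064620-116064869 (minus strand). Capitals mark matches on either strand to the motifs TAATTA (homeodomain core), CAGCTG (an E-box), TGACAG (Meis core), GGGCGG (GC box of the Sp family) and TGTTTAC (forkhead); each window holds at most 1 match.
Gsx2: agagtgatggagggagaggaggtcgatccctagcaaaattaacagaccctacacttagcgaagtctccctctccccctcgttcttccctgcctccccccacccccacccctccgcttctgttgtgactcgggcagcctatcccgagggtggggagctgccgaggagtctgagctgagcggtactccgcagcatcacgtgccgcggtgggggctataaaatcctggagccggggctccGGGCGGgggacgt
Isl1: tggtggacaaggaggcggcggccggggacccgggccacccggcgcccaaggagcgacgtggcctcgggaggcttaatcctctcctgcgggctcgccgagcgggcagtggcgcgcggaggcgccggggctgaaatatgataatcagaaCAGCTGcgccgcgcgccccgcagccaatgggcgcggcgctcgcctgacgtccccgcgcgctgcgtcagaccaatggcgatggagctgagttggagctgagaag
Sp9: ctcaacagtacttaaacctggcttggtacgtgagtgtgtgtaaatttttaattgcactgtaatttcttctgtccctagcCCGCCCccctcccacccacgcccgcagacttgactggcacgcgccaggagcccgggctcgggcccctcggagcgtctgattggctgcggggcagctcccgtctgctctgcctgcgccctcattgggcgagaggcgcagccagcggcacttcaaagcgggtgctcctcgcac
Meis2: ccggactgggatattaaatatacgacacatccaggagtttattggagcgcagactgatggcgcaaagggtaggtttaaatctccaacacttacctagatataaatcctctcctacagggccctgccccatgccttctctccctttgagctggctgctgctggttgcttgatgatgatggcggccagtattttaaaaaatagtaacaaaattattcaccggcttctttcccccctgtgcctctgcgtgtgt
Gsx2 and Sp9 each hold 1 GC box, found in 32.7% of the 32851 RefSeq windows of this length, and Isl1 holds 1 E-box, found in 13% of them. Meis2 has no match in this window, and the homeodomain, Meis and forkhead motifs, found in 4.84%, 15.9% and 3.17% of windows, have none in these 4. Of the 9 genes, 8 were matched in the RefSeq table, with 13 windows in all. These matches are letters in a window and do not show that a factor binds there.

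Foxp2 and Foxp1 lay on the other side of the wild types in the null samples. Foxp2 measured 6.53 and 6.62 log2 CPM in the null samples, against 5.91 and 5.84 in the null-set wild types. Replicates of a group lay close together, and the gap between the groups was several times as wide. The log2 difference was 0.70 (SE 0.13, 1.63-fold, limma adjusted p = 0.0947). The missense-set wild types, at 6.32, 6.10 and 6.37, also lay above the null-set wild types, by 0.39 (SE 0.12, limma adjusted p = 0.510). With the 5 wild types as 1 group, the difference of Foxp2 in the null samples was 0.47 (adjusted p = 0.256), and over all alternatives its adjusted p ran from 0.0736 to 0.479.

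Foxp1 measured 6.87 and 6.79 log2 CPM in the null samples, against 6.46 and 6.49 in the null-set wild types (log2 difference 0.36, SE 0.15, limma adjusted p = 0.567). Both null values lay above every other sample of the series. The log2 level of Foxp2 minus that of Foxp1 was -0.34 and -0.17 in the null samples, against -0.55 and -0.64 in the null-set wild types and -0.34, -0.18 and -0.23 in the missense-set wild types. Ebf1, a helix-loop-helix gene of the COE family that mesenchyme also expresses, measured 5.75 and 5.21 log2 CPM in the null samples, against 5.08 and 5.47 in the null-set wild types (log2 difference 0.20, SE 0.25, 95% interval -0.35 to 0.75). Its groups overlapped, and the sign turned without null sample 1, at -0.07.

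The null samples were not alike, and neither were the null-set wild types. Null sample 2 was lower than null sample 1 for 6 of the 9 genes, by more than a full log2 unit for Gsx2. The share of all genes lower in null sample 2 was not computed. The 9 genes summed to 594 and 494 CPM in null samples 1 and 2, and to 605 and 733 CPM in null-set wild types 1 and 2. Null sample 2 also had the higher summed level of the list for diencephalon, hypothalamus, eye and midbrain, at 960 CPM against 735 CPM in null sample 1. The same held for the list for mesenchyme, neural crest and meninges, at 3917 CPM against 3008 CPM. The part of these differences in the levels of the 9 genes was not tested.

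In the missense samples, Sp9 and Meis2 lay below all 3 wild types of their set, and the other 7 genes overlapped with them. None of the 9 passed in limma, with adjusted p between 0.884 and 0.981, where 0.0203% of all genes passed. At an unadjusted p under 0.05 the count was 1 of 9, Sp9, which was lower, against 5.54% of all genes (3.2% higher and 2.33% lower). The missense groups did not overlap for 10.9% of all genes, with 4.89% below and 6.02% above. The median log2 change of the 9 genes was -0.03, beside 0.02 over all genes.

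Sp9 measured 5.66, 5.78 and 5.47 log2 CPM in the missense samples, against 6.09, 6.33 and 5.94 in the missense-set wild types. All 3 missense values lay below all 3 wild types. The log2 difference was -0.48 (SE 0.13, 0.717-fold, 95% interval -0.76 to -0.20, limma adjusted p = 0.884). Cir1 measured 5.35, 5.27 and 5.39 log2 CPM in the missense samples, against 5.26, 4.95 and 5.19 in those wild types, a log2 difference of 0.21. Meis2 measured 7.86, 7.91 and 7.64 in the missense samples, against 7.99, 7.996 and 8.27 in those wild types (log2 difference -0.28, SE 0.16, limma adjusted p = 0.902).

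Gsx2 measured 3.35, 3.75 and 3.05 log2 CPM in the missense samples, against 3.66, 3.77 and 3.32 in the missense-set wild types. The groups overlapped, with a log2 difference of -0.20 (SE 0.30) and a 95% interval of -0.87 to 0.47, which holds changes in either direction. Isl1 measured 5.99, 5.59 and 5.72 in the missense samples, against 5.39, 5.34 and 5.69 in those wild types (log2 difference 0.29, SE 0.16). Foxp2 measured 6.63, 6.47 and 6.31, against 6.32, 6.10 and 6.37 in those wild types (log2 difference 0.21, SE 0.11). The intervals of both reached just past 0, from -0.07 to 0.65 for Isl1 and from -0.03 to 0.45 for Foxp2.

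The remaining 4 genes had smaller differences in the missense samples. Gsx1 measured 2.25, 3.02 and 2.86 log2 CPM, against 2.82, 2.91 and 2.77 in the missense-set wild types, with missense sample 1 lowest of all 10 samples. Its log2 difference was -0.12 (SE 0.25), and 0.11 without missense sample 1. Ebf1 measured 5.59, 5.43 and 6.18, against 5.76, 5.59 and 5.62 in those wild types, with missense sample 3 highest of all 10. Its log2 difference was 0.08 (SE 0.20), and -0.15 without missense sample 3. Foxp1 differed by -0.03 (SE 0.12) and Sp8 by 0.13 (SE 0.19).

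**Figure D2:**
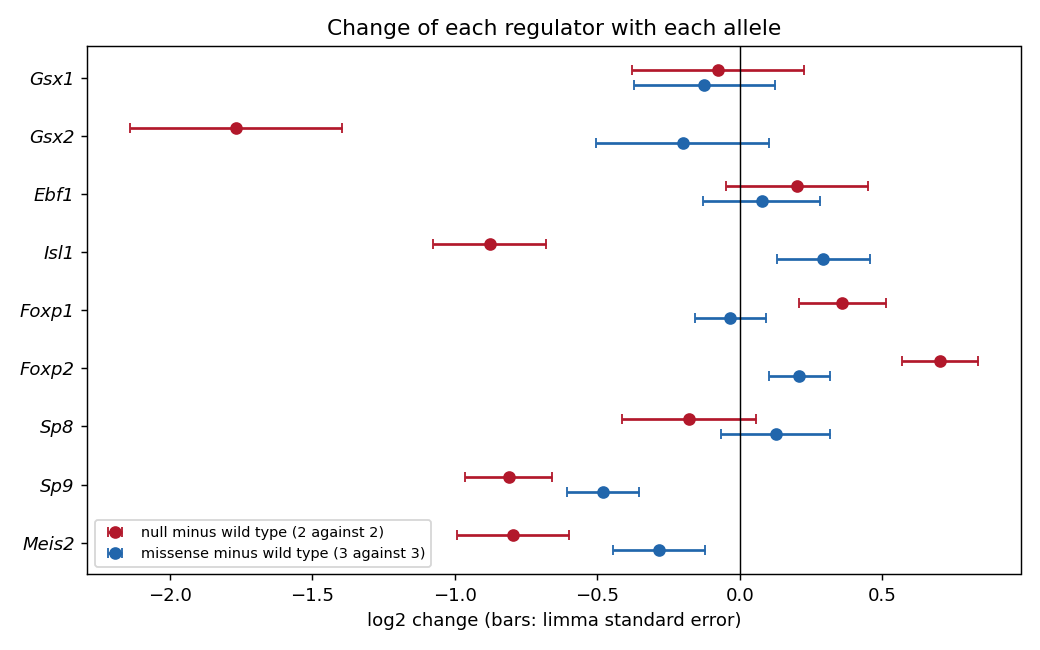
Log2 change of each regulator (horizontal axis) in the null samples minus the null-set wild types (red) and in the missense samples minus the missense-set wild types (blue); points are the differences and bars the limma standard errors. Gsx1, Gsx2, Sp9 and Meis2 lie left of 0 with both alleles, at -0.81 (null) and -0.48 (missense) for Sp9. The bars of Gsx1 with both alleles and of Gsx2 with the missense allele cross 0. Isl1 lies at -0.88 with the null and at 0.29 with the missense allele.

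The alleles were also set against each other and averaged. For the difference between the null and the missense effect, 0 of the 9 genes passed in limma, where 0.0135% of all genes did, and 3 had an unadjusted p under 0.05, against 4.13% of all genes. Isl1 had the lowest p of the 9, with a null effect of -0.88 and a missense effect of 0.29 (difference -1.17, SE 0.26, limma adjusted p = 0.582). For Gsx2 the difference was -1.57 (SE 0.48) and for Foxp2 it was 0.49 (SE 0.17), each with an adjusted p of 1, so no member passed this test.

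Averaged over both alleles, Sp9 fell: its mean log2 change was -0.65 (SE 0.10, 0.639-fold, limma adjusted p = 0.0367), where 0.27% of all genes passed. In the same values, it was lower in all 5 mutant samples than in all wild types of the same set. Below in 1 set alone were 14.8% (null) and 4.89% (missense) of all genes, and the share below in both sets was not computed. Foxp2 (mean log2 change 0.46, adjusted p = 0.0656), Meis2 (-0.54, adjusted p = 0.145) and Gsx2 (-0.98, adjusted p = 0.159) did not pass. The call of Sp9 kept its direction but missed the threshold in 8 of the 10 fits that each left out 1 sample, with a limma adjusted p of 0.0879 without null 1, 0.119 without null 2, 0.0605 and 0.0910 without null-set wild types 1 and 2, 0.0777, 0.0522 and 0.0749 without missense 1, 2 and 3, and 0.0857 without missense-set wild type 1. Its mean log2 change lay between -0.59 and -0.69 in all 10 of these fits. Between the missense-set wild types and the null-set wild types, 0 of the 9 genes passed in limma (adjusted p between 0.510 and 0.996), where 0.0946% of all genes did, and 1, Foxp2, had an unadjusted p under 0.05, against 7.37% of all genes.

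**Figure D3:**
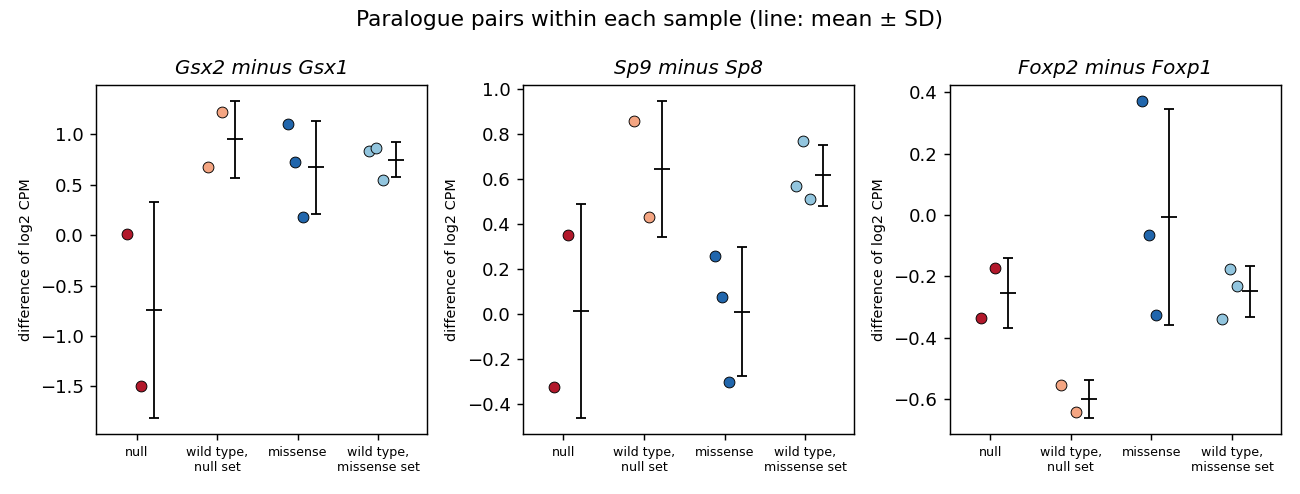
Difference of log2 CPM between paralogues within each sample (vertical axis) for Gsx2 minus Gsx1, Sp9 minus Sp8 and Foxp2 minus Foxp1, by group; points are samples and lines the mean ± SD. Sp9 minus Sp8 averages 0.01 in the null samples against 0.65 in the null-set wild types, and 0.01 in the missense samples against 0.62 in the missense-set wild types.

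The paralogue pair Sp9 and Sp8 gave like values with both alleles. Sp9 minus Sp8 was 0.26, 0.07 and -0.30 on the log2 scale in the missense samples, against 0.57, 0.77 and 0.51 in the missense-set wild types. All 3 missense values lay below all 3 wild types, and all 5 mutant values lay below all 5 wild-type values of the series. The null values, -0.32 and 0.35, spread widely, and the higher one lay close to null-set wild type 2, at 0.43. Sp9, which separated by itself, enters this quantity. How many other gene pairs separate in this way was not computed. Gsx2 minus Gsx1 was 1.10, 0.73 and 0.18 in the missense samples, against 0.84, 0.86 and 0.55 in those wild types, with the groups overlapping.

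Other genes of the lateral eminence and striatal lineage were described from a list of 29, of which 27 were measured. In the null samples 4 of these fell and 0 rose in limma, where 0.128% of all genes fell, with 21 lower and 6 higher in all and a median log2 change of -0.26 beside 0.03 over all genes. The 4 were Dlx1 (-1.38, SE 0.10, adjusted p = 0.000369), Dlx2 (-1.68, SE 0.20, adjusted p = 0.0128) and Dlx5 (-1.16, SE 0.17, adjusted p = 0.0277), homeobox genes of GABAergic progenitors and neurons, and the GABA-synthesis gene Gad2 (-1.35, SE 0.15, adjusted p = 0.00996). Dlx5, which in the mouse acts after Gsx2 in this lineage, measured 4.38 and 4.42 log2 CPM in the null samples, against 5.38 and 5.74 in the null-set wild types. Gad2 measured 5.99 and 5.78 log2 CPM in the null samples, against 7.10 and 7.37 in those wild types. Bcl11b, a transcription factor of striatal and deep-layer cortical neurons, came close at -0.91 on the log2 scale (SE 0.16, limma adjusted p = 0.0566). The list for the medial eminence and preoptic area, given below, also had 4 genes called lower in the null samples. Falls among the listed genes were therefore not particular to the lateral lineage. Which eminence the falls of Dlx1, Dlx2, Dlx5 and Gad2 came from was not tested.

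The count of 4 was 1 without null sample 2, 1 without null-set wild type 2, 3 without missense-set wild type 1 or 3, 1 without a trend of the variance and 0 in a fit to the 4 null-set samples; it was 5 with all wild types as 1 group and 5 with the filter on low levels. In the reference annotation Dlx1as overlaps Dlx1 and Gm12158 overlaps Ebf1 on the opposite strand; no value is given here for either partner, and without strand their reads cannot be told apart. The summed level of the 27 genes was 1151 to 1277 CPM in the null samples, against 1632 to 1825 CPM in the null-set wild types, and 1537 to 1570 CPM in the missense samples, against 1704 to 1722 CPM in the missense-set wild types. In the missense samples 0 of the 27 passed in limma, with 17 lower and 10 higher, a median log2 change of -0.10 beside 0.02 over all genes, and an unadjusted p under 0.05 for 1 higher and 4 lower genes, against 3.2% and 2.33% of all genes. Those nearest to passing were Dlx1 (-0.32, SE 0.08), Bcl11b (-0.44, SE 0.13) and Dlx2 (-0.52, SE 0.16), each with an adjusted p of 0.884.

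**Figure D4:**
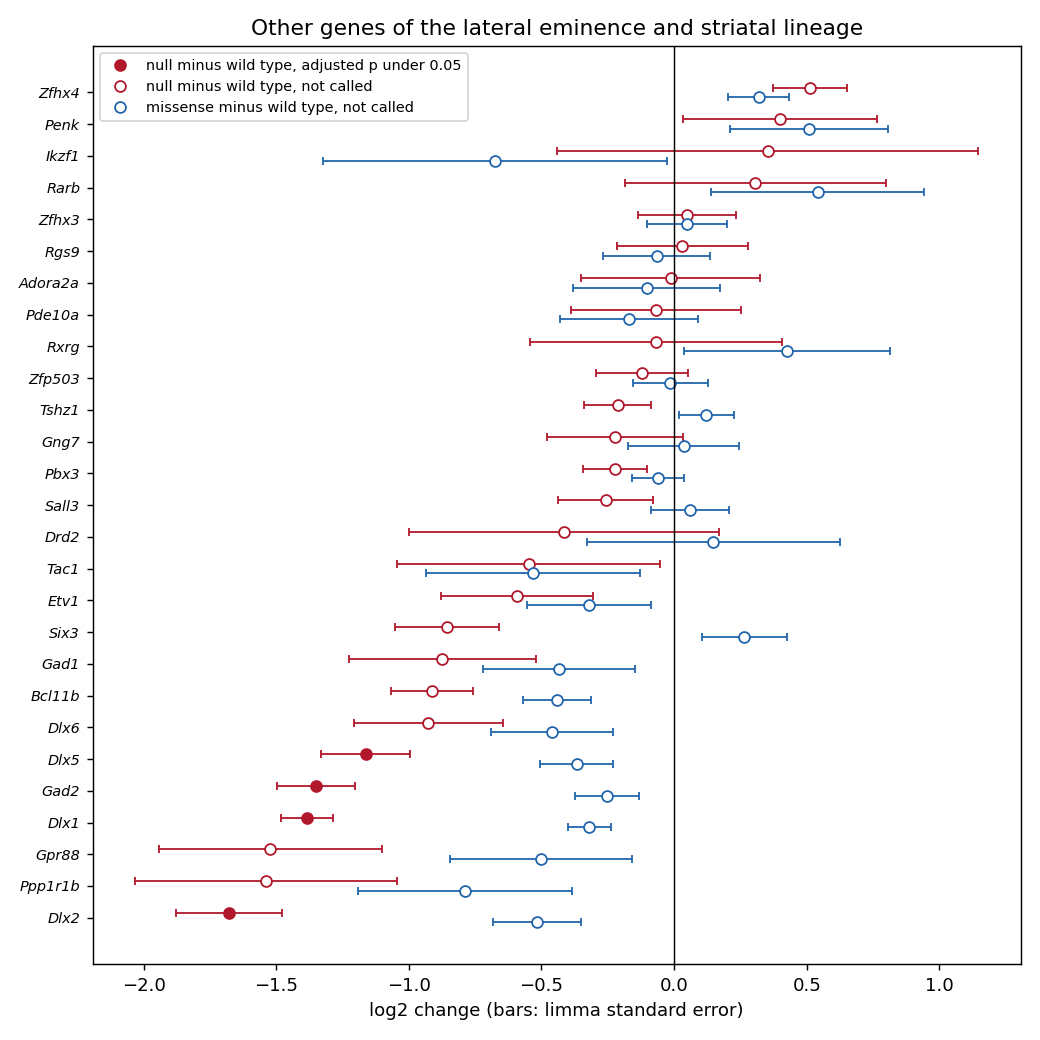
Log2 change (horizontal axis) of the 27 other genes of the lateral eminence and striatal lineage in the null samples minus the null-set wild types (red) and in the missense samples minus the missense-set wild types (blue), ordered by the null change; bars are limma standard errors and filled points have an adjusted p under 0.05. Dlx2, Dlx1, Gad2 and Dlx5 are filled, all in the null comparison and all to the left of 0.

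Paralogues and protein partners of the 9 genes were measured in full, 24 of 24. In the null samples 0 passed in limma. Taking an unadjusted p under 0.05 gave 6 higher, against 5.04% of all genes, and 1 lower, against 3.28% of all genes. There were 11 higher and 13 lower in all, with a median log2 change of -0.01. Among the 6 higher were Ebf3 (0.78, SE 0.21, adjusted p = 0.250) and Ebf2 (0.43, SE 0.15), paralogues of Ebf1, Zfp521 (0.71, SE 0.19) and Zfp423 (0.50, SE 0.16), zinc-finger proteins that bind Ebf proteins, and Sp5 (0.72, SE 0.27), an Sp-family gene that Wnt signalling induces. The 1 lower gene, a count near the share over all genes, was Meis1, the paralogue of Meis2, at -0.58 (SE 0.16, adjusted p = 0.293). Meis1 measured 4.90 and 4.68 log2 CPM in the null samples, against 5.28 and 5.46 in the null-set wild types. In the missense samples 0 of the 24 had an unadjusted p under 0.05, with a median of 0.06 and with Ebf3 at 0.34 (SE 0.17) and Ebf4 at -0.26 (SE 0.15) nearest to it.

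Markers of other cells that the tissue could hold differed in level as well. None of the lists that follow had a member called higher in limma with either allele. Over all 14796 genes, 8081 were higher in the null samples and 7992 in the missense samples than in the wild types of the same set. The list for diencephalon, hypothalamus, eye and midbrain, regions with Isl1, Meis2 and Foxp2 of their own, had 18 of 24 measured genes higher and a summed level of 735 to 960 CPM in the null samples, against 485 to 535 CPM in the null-set wild types. The list for mesenchyme, neural crest and meninges, where Ebf1 is expressed, had 21 of 21 higher, with 3008 to 3917 CPM in the null samples, against 2031 to 2403 CPM in those wild types. Its range was 2703 to 3723 CPM in the missense samples, against 2096 to 3503 CPM in the missense-set wild types. Microglia and macrophage genes had 15 of 15 higher (151 to 154 CPM in the null samples, against 72.0 to 78.4 CPM in the wild types), endothelial and pericyte genes 16 of 18 (406 to 520 CPM against 365 to 368 CPM) and erythroid genes 10 of 13 (7431 to 8837 CPM against 5426 to 8586 CPM). Placode and surface genes had 13 of 14 higher and summed to 114 to 135 CPM in the null samples, against 64.7 to 77.4 CPM in those wild types. At an unadjusted p under 0.05, the null samples had 10 microglial, 9 diencephalic, 8 mesenchymal and 6 placode genes higher. So were 3 endothelial and 2 erythroid genes, against 5.04% of all genes. Of these lists, 1 diencephalic gene was lower, against 3.28% of all genes.

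Lists of neighbouring telencephalic cells showed both directions in the null samples. Medial eminence and preoptic genes had 8 of 14 lower, beside 6703 of 14796 over all genes, and 4 of them were called lower in limma, where 0.128% of all genes were. Their sum was 838 to 845 CPM in the null samples, against 881 to 901 CPM in the null-set wild types. Abundant genes that did not fall, such as Zic1 (log2 difference 0.29) and Ptch1 (0.04), weigh heavily in this sum. Lhx6, a gene of medial eminence interneurons, fell by 2.50 on the log2 scale (limma adjusted p = 0.0128). The others called were Gbx1 (-2.48, adjusted p = 0.0394), Nkx2-1 (-1.91, adjusted p = 0.0443) and Lhx8 (-3.58, adjusted p = 0.0464). Each of the 4 differed by more than any of the 9 regulators. Cortical progenitor and neuron genes had 9 higher and 9 lower (1861 to 2045 CPM in the null samples, against 1807 to 2192 CPM in those wild types), and pan-neuronal genes had 13 of 16 lower (3710 to 4236 CPM against 4407 to 4970 CPM). At an unadjusted p under 0.05, 5 medial eminence, 4 pan-neuronal and 3 cortical genes were lower, against 3.28% of all genes. Higher were 2 medial eminence genes, against 5.04% of all genes. Every measured marker of these lists reached a log2 level above 0 in at least 1 sample.

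In the missense samples, where Sp9 and Meis2 lay below all 3 wild types, some of these lists differed as well. Microglia and macrophage genes had 12 of 15 higher, 6 of them at an unadjusted p under 0.05, against 3.2% of all genes. The list summed to 124 to 148 CPM in the missense samples, against 91.2 to 110 CPM in the missense-set wild types. These ranges did not overlap. Placode and surface genes had 11 of 14 higher, and mesenchymal genes had 20 of 21 higher. The placode list summed to 98.3, 106 and 214 CPM in missense samples 1, 2 and 3, against 93.4 to 117 CPM in those wild types. Only missense sample 3 lay above these wild types. Its mean correlation with the other samples, 0.945, was the lowest of the 10. At an unadjusted p under 0.05, 1 placode and 2 mesenchymal genes were higher, against 3.2% of all genes, and 0 were lower, against 2.33%. Cortical genes had 15 of 18 lower, beside 6804 of 14796 over all genes. Of the 15, 4 had an unadjusted p under 0.05, against 2.33% lower over all genes. The cortical list summed to 1880 to 2348 CPM in the missense samples, against 2129 to 2462 CPM in those wild types. Pan-neuronal genes had 13 of 16 lower, 0 of them at an unadjusted p under 0.05 (4567 to 5261 CPM in the missense samples, against 5204 to 5428 CPM in those wild types). Diencephalic, hypothalamic, eye and midbrain genes had 18 of 24 higher, erythroid genes 10 of 13, endothelial genes 8 of 18 and medial eminence genes 7 of 14, and the summed levels of these lists overlapped between the groups. No marker of any of these lists passed in limma in the missense samples. The part of any of these cells in the levels of the 9 regulators was not tested with either allele.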

How the data were processed

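RNA from telencephalon of mouse embryos was measured in 10 samples. The deposited values are on a log2 scale, filtered and normalized by the authors as the name of their table says. Taken off the log scale, each sample adds up to 1000450 to 1000890, which fits log2 CPM with a small offset. Low values showed no steps of single reads, so reads could not be recovered and counting error cannot be stated. The submitters' processing notes name GRCm39. Aligner, counter and strandedness: not given in the sources used here. Of 14797 genes, 1 without a name was left out.

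With 4 groups, a linear model was fitted over 14796 genes with limma 3.58.1 in R 4.3.3 (6 residual and 4.83 prior degrees of freedom, variance trend on the mean). Tests were 2-sided with Benjamini-Hochberg adjustment over all genes, called under 0.05. The fit was also run on simulated data with independent noise and no effects of set, litter or cell content. That run does not cover such effects, and its outcome is not given here. Figures used Python 3.11.15, pandas 2.3.3 and matplotlib 3.10.9, and R the package data.table (1.17.8). The members, lists and tests were chosen with earlier results of these data known. All 9 members are named; from each list, those with the smallest p (up to 6 and 3 in the lineage and paralogue lists, up to 3 in others). Some genes of the lists are not reported here and were taken out of their counts, medians and sums. Not all named genes are printed, while Cir1 was added, and Dlx1as and Gm12158 named without values, after their overlap was seen. Alternatives were 1 group of wild types, each set alone, median or quantile scaling, a filter at the 25th percentile of level, 1 added on the linear scale, no variance trend, and leaving out each sample. No pair of samples was a duplicate (pairwise correlation 0.938 to 0.964).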

Additional observations from a re-analysis of the deposited data

How the results depend on the processing

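Of the 9 genes, 0 passed in the null samples and 1 where all wild types formed 1 group (Sp9); the count ran from 0 to 1 over the 10 fits that each left out 1 sample, with Gsx2 passing without null 1. The median log2 change in the null samples, -0.18, ran from -0.49 to -0.18 in these fits. For the mean of the alleles the count of 1 (Sp9) was 0 without a trend of the variance (adjusted p = 0.115) and ran from 0 to 1 in these fits; Sp9 passed in 5 of the 6 other alternatives. With all wild types as 1 group the null difference was 0.12 for Gsx1 and -0.0252 for Ebf1, against -0.08 and 0.20. Leaving out 1 sample turned the sign of differences that passed in no fit: null, Gsx1 (-0.24 to 0.0916), Ebf1 (-0.0724 to 0.47) and Sp8 (-0.49 to 0.14); missense, Gsx1 (-0.28 to 0.11), Ebf1 (-0.15 to 0.23) and Foxp1 (-0.15 to 0.0765); mean, Gsx1 (-0.18 to 0.0161) and Sp8 (-0.18 to 0.13). The cause was not tested. Over all genes the null comparison called 24, 59 with the wild types as 1 group, 6 without the trend, 0 with the null set alone and 2 to 23 with 1 sample left out; the missense comparison called 3 and 2 to 10, and the mean 40, 13 without the trend and 10 to 29. The difference of the alleles called 2, 9 with the wild types as 1 group, 1 median-centred, 0 without the trend and 1 to 10 with 1 sample left out; the wild types of the sets differed for 14, 8 with the filter and 7 to 21. No paired analysis was possible because the labels give no replicate numbers shared between groups. A fit that left 1 sample in a group assumed it to vary like the others. The counts of other lineage genes under alternatives were added after the data were seen. With 2 or 3 samples a group, small differences cannot be shown.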

Other observations

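For each of the 9 genes, the 3 genes with the most similar log2 level over the 10 samples were taken from 10679 genes. Their mean level reached the 25th percentile, and genes with names of predicted models, cDNA clones or pseudogenes were left out. Correlations are given as a description: the 10 samples share the differences between groups and sets, and among so many genes high values arise readily. Gsx2 was closest to Sox21 (Pearson r = 0.938), Dlx2 (0.932) and Mbp (0.929), and Sp9 to Zswim5 (0.972), Pou3f3 (0.947) and Dlx5 (0.924). Meis2 was closest to Ddah1 (0.961), Id4 (0.956) and Sox8 (0.941). Sox8 and the pair Dlx2 and Dlx5 had log2 changes of -2.25, -1.68 and -1.16 in the null samples. The other neighbours of Gsx2, Sp9 and Meis2 ran from -0.40 (Id4) to -0.78 (Sox21). These neighbours were chosen by similarity to genes that lay low in the null samples, so lower levels there are partly built in. Foxp2 was closest to Mmp28 (0.953), Sepp1 (0.936) and Wnt3a (0.928), a Wnt ligand of the cortical hem, which had a log2 change of 1.11 in the null samples. Isl1 was closest to Gas7 (0.913), Wdr7 (0.905) and Map3k12 (0.903), and Wdr7 differed by -1.22 with the null and by 0.32 with the missense allele. For Gsx1 (Ypel2, Gnai2 and Sars2), Ebf1 (Syndig1, Slc25a30 and Scap), Foxp1 (Agrn, Trub1 and Acsf2) and Sp8 (Ino80, Uba1 and Cdh6) the values ran from 0.886 to 0.954.

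Among the 9 genes themselves, Gsx2 and Meis2 had the most similar levels (r = 0.849, n = 10), followed by Gsx2 and Sp9 (0.798), while Foxp2 ran opposite to Sp9 (-0.805) and to Gsx2 (-0.727). Gsx1 had no such tie to Gsx2 (-0.09).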
